A study of Mus musculus with 6 samples.

Results

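The genes described here encode the BCL2 family, the proteins that decide at the outer mitochondrial membrane whether a stressed cell survives. Members were all probe sets of the array whose annotation names exactly 1 gene symbol, where that symbol is one of 10: the survival genes Bcl2, Bcl2l1 and Mcl1, the effector genes Bax and Bak1, and the BH3-only genes Bcl2l11, Bid, Bbc3, Pmaip1 and Bad. That rule found 29 of 45037 probe sets, and they stand for 9 of the 10 genes. Bax had no probe set listed under its symbol alone and is named only. Of the 29 probe sets, 15 belong to survival genes and 14 to death genes.

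The samples were whole bone marrow RNA from the SCID/Bg strain, with 3 untreated mice, 3 NOX-A12 mice and 1 mouse per Affymetrix Mouse Genome 430 2.0 array. SCID/Bg mice carry the scid and beige mutations, so every mouse in both groups is short of functional T, B and natural killer lymphocytes. NOX-A12 is a mirror-image RNA oligonucleotide that captures the chemokine CXCL12, which keeps blood-forming cells in the marrow through the receptor CXCR4. For age, sex, dose, schedule and any vehicle of the control mice the sources used here give nothing. The comparison asks whether blocking CXCL12 goes along with a different balance of survival and death transcripts in the marrow.

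BCL2, BCL-XL (the main product of Bcl2l1) and MCL1 hold the effectors BAX and BAK in check. BH3-only proteins such as BIM, BID, PUMA, NOXA and BAD (from Bcl2l11, Bid, Bbc3, Pmaip1 and Bad) are produced or activated under stress and bind the survival proteins, and some activate the effectors directly. Freed effectors form pores in the mitochondrion, cytochrome c escapes, and caspases are switched on. In marrow, MCL1 is known to be required by stem cells and by developing granulocytes, BCL-XL by maturing red cells and platelets, and BCL2 by lymphocytes, and BIM limits the lifespan of lymphoid and myeloid cells.

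None of the 9 measured genes passed the test for a difference between untreated and treated marrow. Over the 29 member probe sets the log2 change (treated minus untreated mean of log2(intensity + 16); the added 16 shrinks changes at dim probe sets) ran from -0.40 to 0.40, with 13 higher, 16 lower and a median of -0.05. The median over all 45037 probe sets was 0. In limma with Benjamini-Hochberg adjustment over all probe sets, 0 members passed at an adjusted p under 0.05, and their lowest adjusted p was 0.967. The whole array gave 0 calls too, or 0% (percent of all probe sets called). At an unadjusted limma p under 0.05 there were also 0 member probe sets, where 4.97% of all probe sets lay under it, and the smallest member p was 0.139. The typical size of a member's change, a median of 0.12 regardless of sign, stood beside 0.10 for all probe sets. Among probe sets above the array median intensity, where 24 of the 29 members lay, it was 0.13 for members and 0.09 for all.

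One array, that of untreated mouse 3, differed from the rest. Over probe sets, which do not count as replicates, its r with each other array was 0.982 to 0.985, and pairs of the other 5 arrays reached 0.991 to 0.994. It had 851 probe sets more than 2-fold away from the others' median, where the remaining arrays had 44 to 67. The marker list of leukocyte identity (6 measured genes) was lowest there, at -0.47 against its own average over the 6 mice, while the other 5 mice lay between 0.02 and 0.20. Median intensity ranged only from 44.8 to 45.6 over the arrays. The labelled tissue carried its markers: the myeloperoxidase gene Mpo of granulocyte precursors had an untreated mean intensity of 7337 ± 680 (SD, n = 3), and the erythroid regulator gene Gata1 one of 1869 ± 118 (SD, n = 3). In RNA from a mixed tissue, fewer cells of a type and less RNA per cell cannot be told apart.

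Among the survival genes, Mcl1 gave positive changes and Bcl2 negative ones at every probe set, all small. The stretches just before their annotated start sites are shown because these 2 genes had the most probe sets with changes of a single sign. They come from RefSeq's promoter table (GRCm38.p6), read 5′ to 3′ on the gene's strand, and capitals mark the GC box, the short element GGGCGG or its reverse complement, bound by SP1-type factors.
Mcl1, 30 bases, chr3:95658691-95658720, plus strand: ccggaaacgcCCGCCCctttccccttttac
Bcl2, 60 bases, chr1:106714291-106714350, minus strand: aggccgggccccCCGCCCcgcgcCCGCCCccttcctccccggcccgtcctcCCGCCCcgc
Searched on both strands over the 120 bases before the start, the Mcl1 window held 1 GC box and the Bcl2 window 3, and neither held the letters CCAAT of the CCAAT box. No TATA box, spelled TATAAA, was found in either. A cyclic AMP response element, spelled TGACGTCA, was also not found in these windows. Of all 32851 windows of that length, 26.5% held a GC box, 21.3% a CCAAT box, 6.34% a TATA box and 1.24% the cyclic AMP element. Among members, the search covered promoter entries of 9 of the 10 genes, with Bax included and Pmaip1 left out. These gave 15 windows, of which 8 held a GC box. GC content was 72.5% for Mcl1 and 70.8% for Bcl2, against a median of 54.2% over all windows. These matches are a description of the letters and carry no information on binding.

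Mcl1, a short-lived survival protein's gene, had 6 probe sets, all above the array median. At the brightest (1448503_at) the untreated mice had intensities of 4445, 4455 and 3816 and the treated mice 4666, 4666 and 4110. The groups overlapped, because the lowest treated mouse lay below the pair of higher untreated mice. The means were 4238 ± 366 (SD, n = 3) and 4481 ± 321 (SD, n = 3), a log2 change of 0.08 ± 0.11 (SE, 95% interval -0.17 to 0.34, limma adjusted p = 0.967). The other 5 probe sets gave 0.14 to 0.35, and each of the 6 stayed above 0 with any 1 mouse left out. These probe sets read the same RNA of the same 6 mice, so their common sign is not independent evidence.

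A single Mcl1 probe set, 1456381_x_at, separated the groups. Its intensities were 1672, 1749 and 1734 in untreated and 1894, 2003 and 1811 in treated marrow, a log2 change of 0.14 ± 0.09 (SE, limma adjusted p = 0.967). Every treated mouse lay above every untreated mouse there, by a margin smaller than the range among the treated mice. The suffix x marks a probe set whose probes may bind other transcripts as well.

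The widest Mcl1 difference came from 1416881_at. There untreated mice read 1216, 999.6 and 642, and treated mice 1204, 1327 and 1028. Untreated mouse 3 was far below the other 5 mice, and without it the change of 0.35 ± 0.23 (SE) became 0.10. Without untreated mouse 1 it became 0.55 (limma unadjusted p = 0.0407, not past the threshold after adjustment). At the brightest probe set the change without untreated mouse 3 was 0.01. Neutrophils depend on MCL1, and the mean level of their markers was also lowest in untreated mouse 3. It was -0.22 against its own average there, with the other 5 mice between -0.02 and 0.07. Single markers differed: Cxcr2 read 483 there and 1029 to 1692 elsewhere, while Camp, Ngp, S100a8, S100a9 and Ctsg were not lowest there. Of 12 measured neutrophil markers 9 were higher in treated mice, none passed the limma test, and all were above the array median. Their part in the Mcl1 values was not tested.

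Bcl2, the founding survival gene, had 5 probe sets. The brightest, 1457687_at, read 539, 562 and 511 in untreated and 508, 492 and 488 in treated mice. Every treated mouse was below every untreated mouse, with untreated mouse 3 and treated mouse 1 nearly level. The means of 537 ± 25.2 (SD, n = 3) and 496 ± 10.4 (SD, n = 3) gave a log2 change of -0.11 ± 0.09 (SE, 95% interval -0.32 to 0.09, limma adjusted p = 0.967). The other 4 probe sets gave -0.28 to -0.01, with overlapping groups.

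The probe set with the largest Bcl2 difference, 1440770_at, was also the least even. Its untreated intensities were 111, 229 and 203 and its treated intensities 156, 145 and 123, so that untreated mouse 1 was the lowest of all 6 mice. The change was -0.28 ± 0.24 (SE) with all mice and -0.10 without untreated mouse 2. Without untreated mouse 1 it was -0.57 (limma unadjusted p = 0.00472, not past the threshold after adjustment). That p was the smallest of any member probe set over all fits with 1 mouse left out. In the same fit the groups did not overlap at 24.6% of all probe sets. Across the 5 probe sets all were lower without untreated mouse 1, treated mouse 1 or treated mouse 3, and 4 were lower without any 1 of the other 3 mice.

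B lineage and natural killer markers were lower beside the lower Bcl2 values, and T cell markers were mixed. All 9 measured B lineage markers were lower in treated mice, with a median log2 change of -0.32 and 4 at an unadjusted limma p under 0.05, and the list level lay between 0.01 and 0.30 above its own average in untreated mice and between -0.27 and -0.01 in treated mice. Of these markers 2 were below the array median. Of 8 measured T and natural killer markers 6 were lower, 3 were below the array median, and list levels overlapped at -0.02 to 0.15 in untreated and -0.12 to -0.02 in treated mice. The natural killer markers Klrd1, Eomes and Ncr1 gave -0.52 ± 0.09, -0.37 ± 0.11 and -0.34 ± 0.23 (SE), and Ccl5 gave -0.38 ± 0.12 (SE). Groups did not overlap for Klrd1, Eomes and Ccl5, and overlapped for Ncr1. The T cell marker Cd3d gave 0.46 ± 0.14 (SE, limma unadjusted p = 0.0108), with every treated mouse above every untreated mouse. The other T cell markers, Cd3e, Cd4 and Cd8a, were the 3 below the array median and gave -0.09, -0.07 and 0.06. None of these markers passed at an adjusted p under 0.05 in limma. Their part in the Bcl2 values was not tested.

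Bcl2l1, which encodes BCL-XL, had 1 bright probe set and 3 dim ones, 2 of them below the array median. The bright one, 1420888_at, read 1721, 1617 and 1608 in untreated and 1518, 1601 and 1562 in treated mice. The groups did not overlap, but untreated mouse 3 exceeded treated mouse 2 by less than the spread within either group. The means were 1649 ± 62.9 (SD, n = 3) and 1560.3 ± 41.9 (SD, n = 3), a log2 change of -0.08 ± 0.09 (SE, 95% interval -0.28 to 0.12, limma adjusted p = 0.967). The dim probe sets disagreed in sign, at 0.18, -0.15 and -0.12, and each changed sign when 1 mouse was left out. Erythroid markers, whose cells depend on BCL-XL, overlapped between groups, at -0.10 to 0.14 against their own average in untreated and -0.05 to 0.07 in treated mice, with 6 of 9 higher and 1 below the array median. Megakaryocyte markers, for the platelet lineage, overlapped too, at -0.24 to 0.23 in untreated and -0.14 to 0.11 in treated mice. Of these, 3 of 5 were lower. The part of either list in the Bcl2l1 values was not tested. All 8 stromal and all 8 endothelial markers were lower in treated mice, at list levels of 0.03 to 0.44 and 0.10 to 0.26 in untreated against -0.31 to -0.15 and -0.22 to -0.13 in treated mice, and their part in the values of Bcl2 and Bcl2l1 was not tested.

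**Figure D1:**
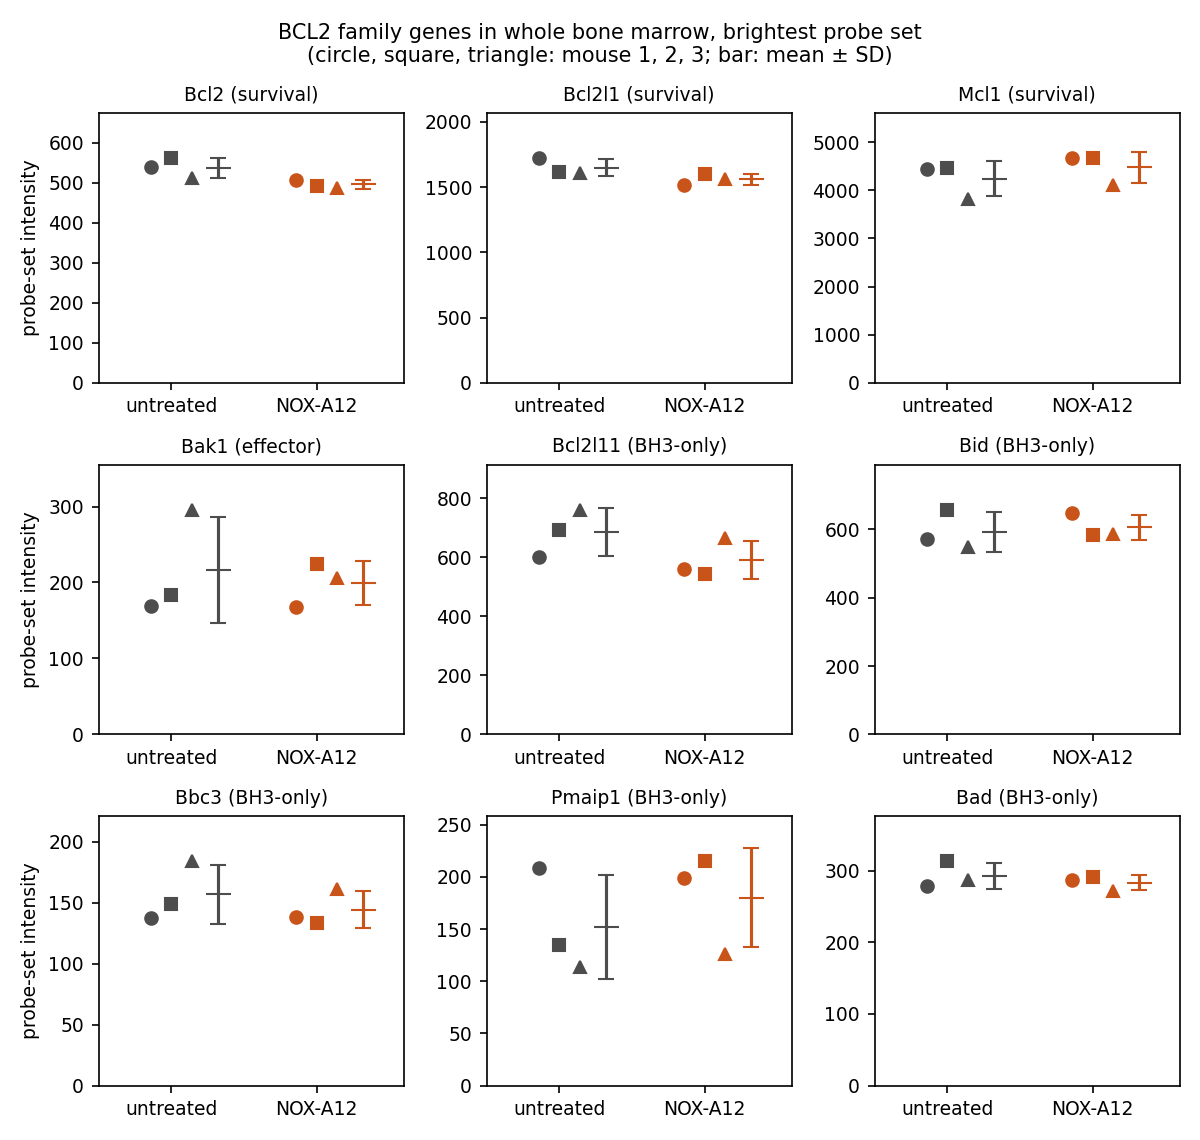
Probe-set intensity (linear, from 0) of the brightest probe set of each measured BCL2 family gene in the 3 untreated and 3 NOX-A12 mice; symbols are single mice and bars the mean ± SD. Groups overlap for every gene except Bcl2 and Bcl2l1, where treated mice lie just below untreated ones, and untreated mouse 3 is the highest for Bak1, Bcl2l11 and Bbc3.

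The effector gene Bak1 varied more among untreated mice than between groups. Its bright probe set, 1418991_at, read 169, 184 and 296 in untreated and 168, 225.0 and 206 in treated mice. Untreated mouse 3 was the highest of the 6, and all others lay between 168 and 225.0. The log2 change was -0.08 ± 0.21 (SE, 95% interval -0.57 to 0.42, limma adjusted p = 0.981), and 0.16 without untreated mouse 3. The other probe set was near background, at a mean of 11.3 in untreated and 11.8 in treated mice, and gave 0.03 ± 0.10 (SE).

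Bcl2l11, encoding BIM, which binds all survival proteins of the family, had the smallest unadjusted p among the members. At its brightest probe set, 1456005_a_at, the untreated mice read 602, 694 and 762 and the treated mice 561, 545 and 665. Treated mouse 3 lay above untreated mouse 1, so the groups overlapped. The means of 686 ± 80.3 (SD, n = 3) and 590.2 ± 64.9 (SD, n = 3) gave -0.21 ± 0.13 (SE, 95% interval -0.51 to 0.09, limma unadjusted p = 0.139, adjusted p = 0.967). Its other 4 probe sets gave -0.10, -0.10, -0.05 and 0.04, so the brightest was the outermost of the 5. The brightest carries the suffix a, for a probe set that reads several transcripts of a gene, and with all probe sets marked as shared left out the brightest remaining one, 1435448_at, gave -0.05 (limma adjusted p = 0.977). With any 1 mouse left out the brightest ranged from -0.30 (without untreated mouse 1) to -0.13 (without untreated mouse 3).

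Bid encodes a protein that death receptors activate through caspase 8. At its brightest probe set, 1417045_at, untreated mice read 572, 658 and 548 and treated mice 648.5, 584 and 588. Both groups covered nearly the same range, and the change was 0.04 ± 0.11 (SE, 95% interval -0.21 to 0.28, limma adjusted p = 0.982). The dimmer probe sets gave 0.40 ± 0.29 and 0.17 ± 0.13 (SE). The first of them read 176, 154 and 73.1 in untreated and 171, 209.8 and 142 in treated mice, and without the low untreated mouse 3 its change was 0.06.

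The p53-responsive genes Bbc3 (PUMA) and Pmaip1 (NOXA) had 1 probe set each and gave opposite signs. Bbc3 (1423315_at) read 138, 149 and 184 in untreated and 139, 133 and 161 in treated mice, a change of -0.10 ± 0.13 (SE, 95% interval -0.41 to 0.20, limma adjusted p = 0.967). Without untreated mouse 3, its highest reading, the change was 0.01. Pmaip1 (1418203_at) read 209, 135 and 114 in untreated and 199, 215 and 126 in treated mice, a change of 0.23 ± 0.25 (SE, 95% interval -0.37 to 0.82, limma adjusted p = 0.967). Each group held both high and low mice for Pmaip1, and the change ran from 0.06 without untreated mouse 3 to 0.46 without untreated mouse 1. This interval was the widest of the 9 genes at their brightest probe sets.

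Bad, whose protein is kept inactive by growth-factor signalling through phosphorylation, was the most even of the death genes. Its bright probe set, 1416583_at, read 278, 313 and 286 in untreated and 287, 291 and 271 in treated mice, with treated mouse 3 the lowest and untreated mouse 2 the highest of all 6. The change was -0.05 ± 0.09 (SE, 95% interval -0.26 to 0.17, limma adjusted p = 0.976). The dim probe set gave the lowest value of any member, -0.40 ± 0.28 (SE), at intensities of 19.8, 18.6 and 26.8 against 22.1, 1.79 and 17.8. The reading of 1.79 in treated mouse 2 set that value: without it the change was -0.07.

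**Figure D2:**
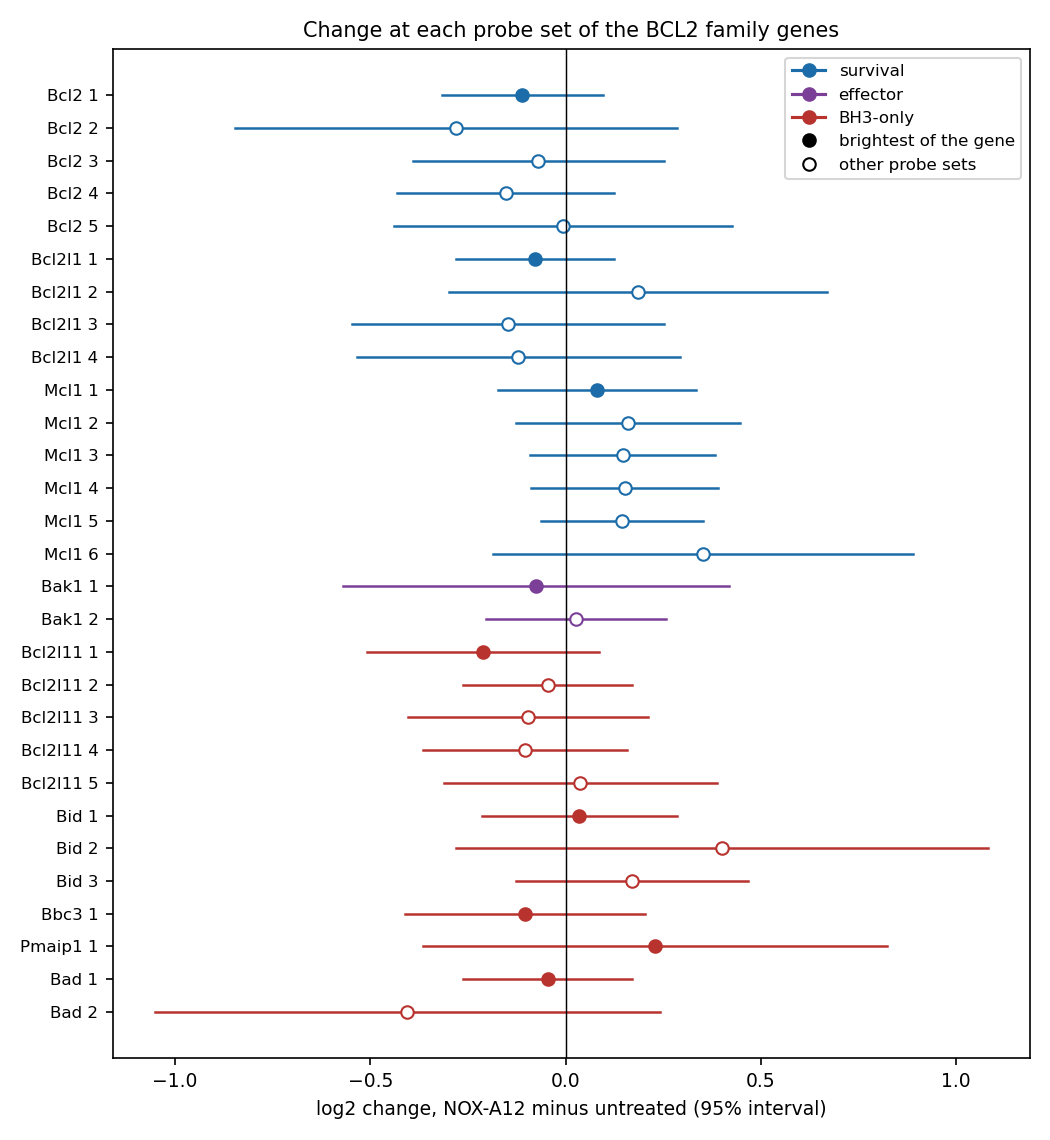
Log2 change (NOX-A12 minus untreated) with its 95% interval at each of the 29 member probe sets, ordered within a gene from brightest to dimmest and coloured by role. Every interval includes 0; the 6 Mcl1 and 3 Bid points lie right of 0, and the 5 Bcl2 and 2 Bad points left of it.

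Groups did not overlap at 3 of the 29 member probe sets (10.3%), 1 higher (Mcl1) and 2 lower (Bcl2 and Bcl2l1). Over all probe sets the share was 9.85%, made up of 4% higher and 5.85% lower, so the members' share was near the background. All 3 were among the 15 survival probe sets (20%), and 0 of the 14 death probe sets separated the groups. With so few probe sets, several of them from the same gene, these shares do not set the classes apart. Leaving out 1 mouse raised the member count to 8 without untreated mouse 1, 6 without untreated mouse 2, 5 without untreated mouse 3, 5 without treated mouse 1 and 9 without treated mouse 3, and left it at 3 without treated mouse 2. The share over all probe sets rose as well in those fits, to between 16.9% and 24.6%, against 10.3% to 31.0% of the members.

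Survival and death genes were then set against each other. At the brightest probe sets the 3 survival genes had a median change of -0.08 (1 higher, 2 lower) and the 6 measured death genes a median of -0.06 (2 higher, 4 lower). For each mouse, the mean log2 level of the survival genes minus that of the death genes, each gene taken against its own average over the 6 mice, was 0.10, 0.06 and -0.14 in untreated and 0.02, -0.01 and -0.02 in treated mice. The treated mice lay inside the range of the untreated mice, and untreated mouse 3 marked its lower end. The difference between the group means was -0.01, against an SD of 0.13 among untreated and 0.02 among treated mice. It was -0.08 without untreated mouse 3 and 0.04 without untreated mouse 1, so its sign depended on single mice.

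Pairs whose proteins are known to bind each other, also overlapped between groups. Between Mcl1 and Pmaip1, whose product NOXA neutralises MCL1, the log2 difference against its own average was -0.31, 0.27 and 0.26 in untreated and -0.18, -0.28 and 0.24 in treated mice, a group difference of -0.15. Between Mcl1 and Bak1 it was 0.28, 0.18 and -0.69 against 0.36, -0.03 and -0.10, a group difference of 0.16. In both pairs the spread within a group exceeded the difference between groups, and for Mcl1 and Bak1 untreated mouse 3 alone was strongly negative. Between Bcl2l1 and Bad the group difference was -0.03, with an SD of 0.13 among untreated and 0.06 among treated mice. Bcl2 against Bax was not computed, as no probe set was listed under the symbol Bax alone.

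**Figure D3:**
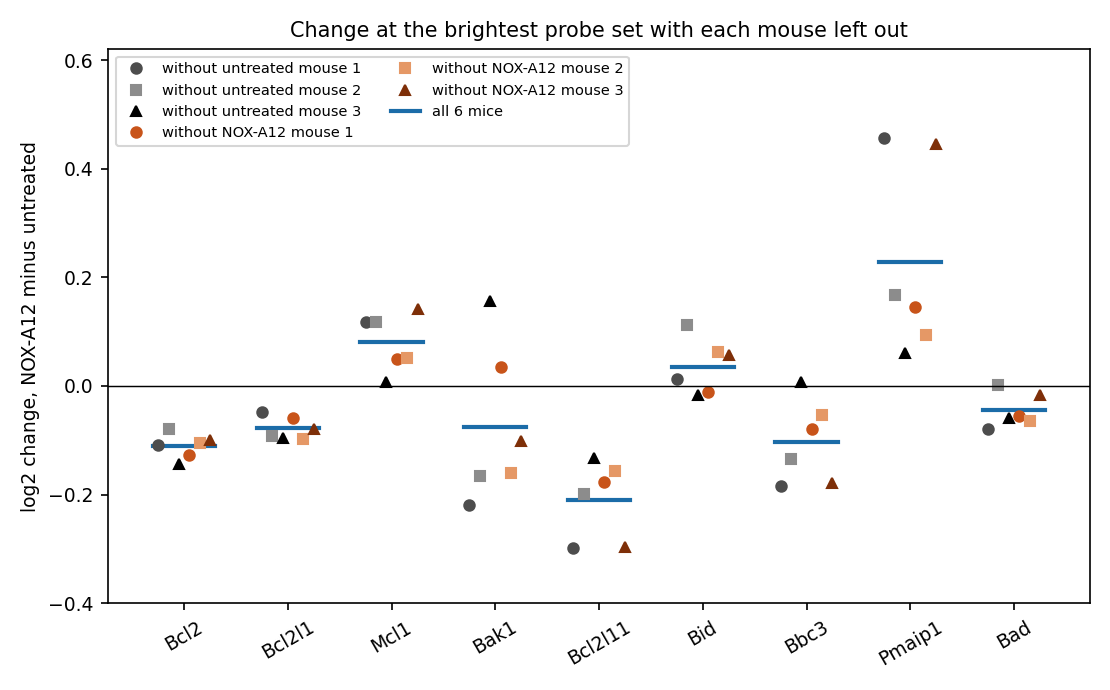
Log2 change at the brightest probe set of each measured member with all 6 mice (blue line) and with each mouse left out (symbols, by mouse). Bcl2, Bcl2l1 and Bcl2l11 stay below 0 and Mcl1 and Pmaip1 above it throughout, while Bak1, Bid, Bbc3 and Bad cross 0.

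Genes around the family were read from 7 lists of relatives, caspases and regulators, 58 measured genes of 66 listed, at the brightest probe set of each. Of these 32 were higher and 26 lower, with a median of 0.02, and 0 passed the limma test in either direction. At an unadjusted limma p under 0.05 there were 0 higher and 2 lower genes, or 3.45% in all, near the 4.97% of all probe sets (1.88% higher and 3.1% lower). Groups did not overlap for 7 of the 58 genes, or 12.1%, again near the background.

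Further family genes included Bok, an effector-like relative, which read 32.5, 34.5 and 49.7 in untreated and 28.0, 20.4 and 30.1 in treated mice, below the array median (-0.37 ± 0.15 SE, limma unadjusted p = 0.0417, adjusted p = 0.967). Of 9 measured death and atypical relatives 7 were lower, with a median of -0.16, and 2 were below the array median. Groups did not overlap for Bok, Bcl2l12 and Bnip3, all lower. Bcl2l12 gave -0.20 ± 0.11 (SE). Hrk, a BH3-only gene, had the lowest value of the list, -0.52 ± 0.37 (SE), with untreated mouse 3 at 178 and the other 5 mice between 46.1 and 88.1. This list was highest in untreated mouse 3, at 0.32 above its own average. Among survival relatives, Bcl2l2 (BCL-W) gave -0.02 ± 0.10 (SE) and the dim Bcl2l10 gave 0.24 ± 0.13 (SE). The Bcl2a1 genes had no probe set with a single symbol.

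Downstream, the apoptosome and caspase list was evenly split, with 5 of 10 higher and a median of 0.01. Its outermost members were Endog, a mitochondrial nuclease gene (0.19 ± 0.12 SE), and Htra2, a mitochondrial protease gene whose product antagonises caspase inhibitors (-0.16 ± 0.11 SE). Apaf1, the scaffold that cytochrome c activates, gave 0.03 ± 0.10 (SE), and Cycs, cytochrome c itself, gave 0.02 ± 0.09 (SE). Of 6 caspase inhibitor genes 5 were higher, with a median of 0.04, led by Xiap (0.11 ± 0.10 SE) and Cflar (0.11 ± 0.14 SE).

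Upstream, of 7 death receptor genes 4 were higher and 3 lower, with a median of 0.01. Fasl, the ligand of FAS made by cytotoxic lymphocytes, was dim and read 26.9, 39.1 and 32.9 in untreated and 23.7, 25.1 and 18.3 in treated mice. All treated mice were lower, at -0.35 ± 0.13 (SE, limma unadjusted p = 0.0283, adjusted p = 0.967). Of the T and natural killer markers beside it 6 of 8 were lower, as given with Bcl2. Klrd1, Eomes, Ccl5 and Ncr1 were among the lower ones, and Cd3d and the dim Cd8a were higher. The part of these markers in the Fasl values was not tested. The tumour necrosis factor receptor gene Tnfrsf1a gave 0.16 ± 0.11 (SE).

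Of 9 measured p53 pathway genes 8 were higher, with a median of 0.07, though none had an unadjusted p under 0.05. Mdm4, an inhibitor of p53, gave 0.22 ± 0.20 (SE), with untreated mouse 3 at 566 and the other mice between 842 and 985. The arrest gene Cdkn1a gave 0.10 ± 0.11 (SE), while Sesn2, a stress-induced gene, gave -0.28 ± 0.17 (SE). The level of the list was lowest in untreated mouse 3 (-0.08) and overlapped between groups. Regulators of BH3-only and survival genes were split 7 higher and 8 lower, with a median of -0.02. Atf4, a transcription factor of the stress response that can induce Pmaip1, read 1909.8, 1615 and 1321 in untreated and 1892, 1967 and 1845 in treated mice, a change of 0.25 ± 0.14 (SE). Foxo1, a transcription factor that can induce Bcl2l11, gave -0.17 ± 0.10 (SE), while its brighter relative Foxo3 gave 0.11 ± 0.13 (SE). The part of these regulators in the member values was not tested.

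**Figure D4:**
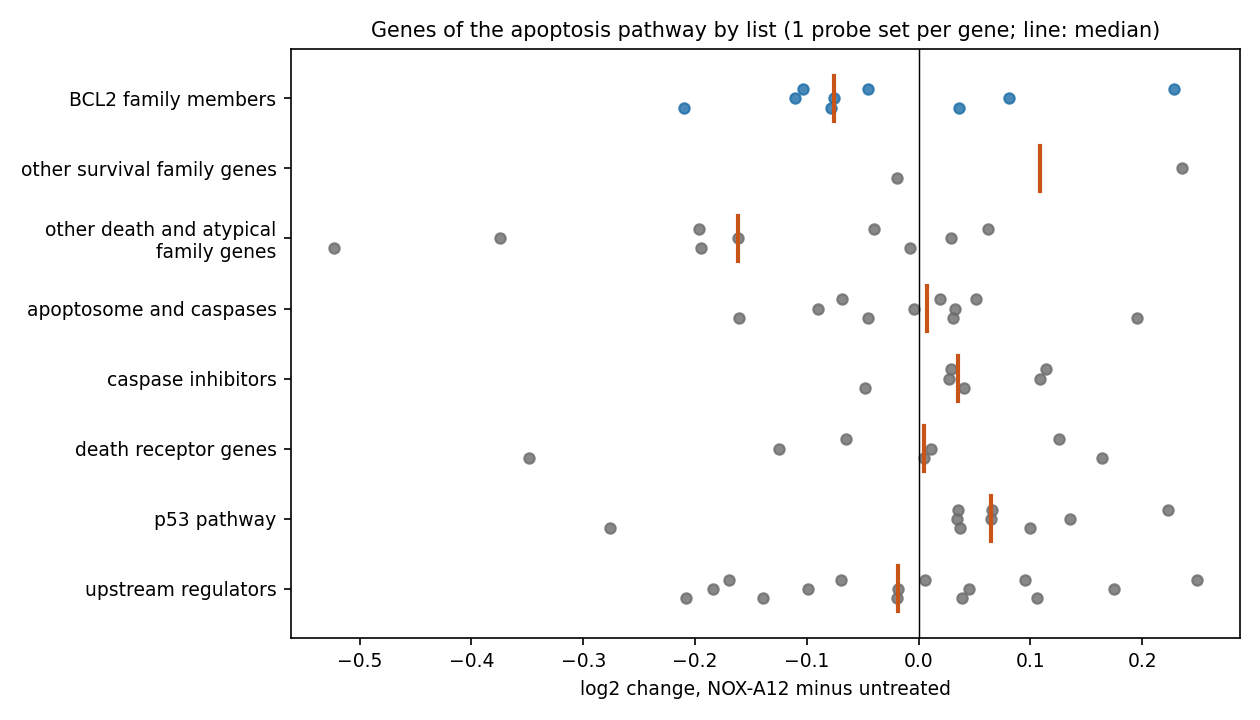
Log2 change (NOX-A12 minus untreated) of each measured gene of the BCL2 family and of 7 pathway lists, 1 brightest probe set per gene, with the median of each list as a line. All medians lie between -0.16 and 0.11, and single genes scatter on both sides of 0 in every list.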

How the data were processed

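The authors deposited 1 linear intensity per probe set and mouse, already summarised. How these were computed and normalized is not given in the sources used here. Groups and mouse numbers came from the sample titles. No normalization was added, since the medians of the arrays spanned only 0.0193 (log2), below a limit of 0.1. The platform annotation named 34945 probe sets with 1 symbol, 932 with several (left unnamed) and 9160 with none. On log2(intensity + 16), limma 3.58.1 under R 4.3.3 compared the groups (linear model with moderated variances, two-sided, 6 arrays, no covariate, Benjamini-Hochberg over 45037 probe sets, threshold 0.05, 7.24 degrees of freedom). The fit was tested on simulated data with independent noise and planted changes larger than that of any member. That test does not cover changes as small as those of the members, or an array that deviates at many probe sets. P-values weigh the difference between groups against the spread between mice, moderated over all probe sets, and 6 arrays limit precision.

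The brightest probe set of a gene had the highest mean log2 value. Every member was named, and in each pathway list the 2 genes with the smallest p. Hrk, Bnip3, Klrd1, Eomes, Ncr1, Ccl5, Cd3d, Cd3e, Cd4, Cd8a, Apaf1, Cycs and Cdkn1a were added after their values were seen. So were Foxo3, Cxcr2, Camp, Ngp, S100a8, S100a9 and Ctsg. Of the cell marker lists, those described were chosen after their values were seen, and Mpo and Gata1 were named to check the tissue. Members and lists were chosen with earlier results of these data known. Alternatives covered normalization, offset, dim or shared probe sets, variance model, array weights, mouse number as a block, each mouse left out, and averaging over all probe sets of each gene.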

Additional observations from a re-analysis of the deposited data

How the results depend on the processing

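In limma, 0 probe sets and 0 members passed under any of the 15 alternative fits, and the lowest adjusted p of a member at its brightest probe set was 0.633. Of 135 changes of members under these fits, 127 kept their sign. With array weights Bid became -0.018 and Bak1 0.052. Leaving out 1 mouse moved Bid between -0.018 and 0.11, Bak1 between -0.22 and 0.16, Bad between -0.079 and 0.0024 (without untreated mouse 2), and Bbc3 between -0.18 and 0.0065 (without untreated mouse 3). Groups did not overlap at 2 member probe sets with quantile normalization, and at 2 of the fewer members left without shared probe sets. The share over all probe sets is not given for these fits. With 1 mouse left out the member count lay between 3 and 9. The share over all probe sets rose as well, from 9.85% with all mice to between 16.9% and 24.6%. Without shared probe sets Bcl2l11 became -0.046. The survival median ranged from -0.11 (quantile normalization) to -0.04 (mean of all probe sets) and the death median from -0.13 (without untreated mouse 1) to -0.01 (without untreated mouse 3), within 1 SD between mice of the values given. Mouse numbers name different animals in the groups, and same-numbered mice did not deviate together (r of -0.09, 0.05 and 0.03 across probe sets). With the replicate block 0 probe sets passed, the changes were the same, and the lowest adjusted p of a member at its brightest probe set was 0.959. Dim probe sets, 5 of the 29 members, lay below the array median intensity, where small differences in background weigh most.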
